A study of Homo sapiens with 36 samples.

Results

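The genes that encode chromatin remodellers were examined for open chromatin in BT549, a human triple-negative breast cancer line of wild-type genotype per the labels. There were 39 such genes among 19970 protein-coding genes: 29 for subunits of SWI/SNF complexes and 10 for remodellers of the ISWI, CHD and INO80 families (SMARCA1 and SMARCA5; CHD1, CHD3, CHD4, CHD7 and CHD8; INO80, SRCAP and EP400). Open chromatin was measured by ATAC-seq on bulk cell samples, and each library is represented by a list of peaks. A peak was assigned to a gene when its centre lay in the gene or within 50 kb of either end, and within each experiment overlapping peaks were joined into regions. The 39 genes had 995 of 204358 regions in the GATA6 experiment, 944 of 189959 in the BRM014 experiment and 672 of 128681 in the double knockdown.

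All 36 libraries came from the same line. The GATA6 experiment crossed 2 siRNAs with 2 treatments. Control siRNA (siCtl) or a SMARTpool against GATA6, a zinc-finger transcription factor, was given for 72 h (siGATA6), followed by 2 h of vehicle or 500 nM of the glucocorticoid dexamethasone (DEX), and each of the 4 groups has 3 libraries. The BRM014 experiment used 4 h of DMSO or of 10 µM BRM014, which inhibits the paired ATPases SMARCA4 (BRG1) and SMARCA2 (BRM), either alone (groups DMSO and BRM014) or with 500 nM DEX for 4 h (DEX_DMSO and DEX_BRM014), and every group has 4 libraries. The double knockdown set 4 libraries with siRNAs to the 2 ATPases together (siBRG1_siBRM) beside 4 with control siRNA alone (siCtl_only), and their labels state no duration. Peak lists hold no RNA or protein measurement, so neither the loss of the targeted ATPases nor the expression of any gene named here can be read from them. MDA-MB-231, another line of the series design, is not used here.

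SWI/SNF complexes use the energy of ATP to slide or evict nucleosomes, and they keep many enhancers open. Each complex holds 1 of the ATPases SMARCA4 or SMARCA2, SMARCC and SMARCD subunits, and accessory subunits that set its type. SMARCB1 and SMARCE1 are core subunits of the BAF and PBAF types named next. ARID1A or ARID1B with a DPF protein mark the BAF type, ARID2, PBRM1, PHF10 and BRD7 the PBAF type, and BICRA or BICRAL with BRD9 the non-canonical type. ISWI, CHD and INO80 family enzymes are separate remodellers that space nucleosomes, act with histone deacetylases or exchange histone variants, and BRM014 is not directed at them.

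The start sites show where the peak lists place these genes in the genome. RefSeq promoter windows of 300 bases (250 before and 50 after the start, build GRCh38.p14, the assembly of which hg38 is the browser name) were matched by symbol for 33 of the 39 genes, with 50 windows. SMARCC1, SMARCC2, ACTL6A, ARID2, ACTB and CHD7 had no entry. For 22 genes a start window overlapped a peak in all 36 libraries. Of the 50 windows, 23 (46.0%) were held in every library, against 32.8% of 34961 windows of all genes, and 3 (6%, an internal or upstream start of ARID1B, CHD3 and SMARCA2) were held in none, against 46.2%. The windows below are shown because 3 of them were held by no library of the BRM014 group (ACTL6B, SMARCE1, CHD4) and 3 kept them in all 36 libraries (SMARCA4 and SMARCA2, the targeted ATPases, and DPF3, the gene whose other regions were lost most). Each is written 5′ to 3′ on the strand of the gene, and capitals mark matches to the motifs searched. The windows lie at chr7:100656399-100656698 (ACTL6B, minus strand), chr17:40647769-40648068 (SMARCE1, minus), chr12:6606402-6606701 (CHD4, minus), chr19:10960780-10961079 (SMARCA4, plus), chr9:2015097-2015396 (SMARCA2, plus) and chr14:72894052-72894351 (DPF3, minus).
ACTL6B: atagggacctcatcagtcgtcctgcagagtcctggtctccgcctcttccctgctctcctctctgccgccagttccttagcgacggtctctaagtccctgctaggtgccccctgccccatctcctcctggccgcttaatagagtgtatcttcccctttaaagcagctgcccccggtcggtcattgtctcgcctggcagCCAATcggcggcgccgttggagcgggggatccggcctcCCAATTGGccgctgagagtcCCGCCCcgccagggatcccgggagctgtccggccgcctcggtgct
SMARCE1: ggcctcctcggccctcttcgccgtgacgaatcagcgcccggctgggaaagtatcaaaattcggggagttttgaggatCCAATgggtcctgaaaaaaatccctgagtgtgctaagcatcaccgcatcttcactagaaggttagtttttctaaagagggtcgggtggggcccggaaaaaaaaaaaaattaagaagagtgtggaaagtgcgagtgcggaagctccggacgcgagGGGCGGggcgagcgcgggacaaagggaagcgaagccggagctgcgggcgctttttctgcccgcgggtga
CHD4: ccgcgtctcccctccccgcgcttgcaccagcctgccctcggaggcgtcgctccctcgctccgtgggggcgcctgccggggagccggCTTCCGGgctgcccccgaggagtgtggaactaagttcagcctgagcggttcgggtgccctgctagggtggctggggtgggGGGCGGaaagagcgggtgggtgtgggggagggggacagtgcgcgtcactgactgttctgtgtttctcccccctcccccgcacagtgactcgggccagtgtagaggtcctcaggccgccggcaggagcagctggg
SMARCA4: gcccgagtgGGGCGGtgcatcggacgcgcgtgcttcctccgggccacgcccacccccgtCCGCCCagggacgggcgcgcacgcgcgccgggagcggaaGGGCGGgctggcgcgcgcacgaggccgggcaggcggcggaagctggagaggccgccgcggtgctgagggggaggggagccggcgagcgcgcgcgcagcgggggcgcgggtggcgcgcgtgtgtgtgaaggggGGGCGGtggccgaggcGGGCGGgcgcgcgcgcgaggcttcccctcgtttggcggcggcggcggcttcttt
SMARCA2: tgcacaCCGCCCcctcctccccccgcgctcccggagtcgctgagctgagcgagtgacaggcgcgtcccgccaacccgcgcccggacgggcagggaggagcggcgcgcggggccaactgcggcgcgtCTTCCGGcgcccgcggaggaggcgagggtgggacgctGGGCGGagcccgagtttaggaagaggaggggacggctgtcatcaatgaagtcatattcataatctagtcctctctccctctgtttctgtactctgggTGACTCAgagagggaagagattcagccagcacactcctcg
DPF3: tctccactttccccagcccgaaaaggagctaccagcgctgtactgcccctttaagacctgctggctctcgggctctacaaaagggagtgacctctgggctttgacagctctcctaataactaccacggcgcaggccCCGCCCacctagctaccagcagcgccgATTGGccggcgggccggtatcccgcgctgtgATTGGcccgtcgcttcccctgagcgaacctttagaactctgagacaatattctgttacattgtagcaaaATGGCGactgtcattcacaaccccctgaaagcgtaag

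At ACTL6B, which encodes the actin-related subunit of neuronal BAF complexes, the window was held by all 12 libraries of the GATA6 experiment, by 4 of 4 libraries with DMSO and 4 of 4 with DEX and DMSO. It was held by 0 of 4 with BRM014 and 0 of 4 with DEX and BRM014, and by 2 of 4 siCtl_only and 0 of 4 siBRG1_siBRM libraries. SMARCE1 encodes the HMG-box core subunit, and its window was held by 2 of 4 libraries with DMSO, 0 of 4 with BRM014, 4 of 4 with DEX and DMSO and 0 of 4 with DEX and BRM014. At CHD4, the ATPase of the NuRD deacetylase complex, the numbers in the same order were 3, 0, 2 and 1. So 19 to 22 libraries held each of these windows, with no holder in the BRM014 group or in siBRG1_siBRM. Among member windows held by all controls, BRM014 removed the peak from 1 of 31 without DEX (ACTL6B; 4.07% of all windows) and from 2 of 31 with DEX (ACTL6B and SMARCE1; 3.88%). The double knockdown removed 1 of 32 (a second start of DPF3 at chr14:72892600-72892899, held by 4 of 4 siCtl_only and 0 of 4 siBRG1_siBRM libraries; 1.68% of all windows).

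Motifs were searched on both strands, and overlapping matches were counted. The GC box was GGGCGG. The CCAAT box was searched by its name's own letters. An ETS-type site was taken as CCGGAAG. The CRE was the palindrome TGACGTCA. The AP-1 site was written TGANTCA with any middle base. The YY1 core was ATGGCG. The SMARCA4 window held 5 GC boxes. The SMARCA2 window held 2 GC boxes with 1 ETS-type and 1 AP-1 match. The DPF3 window held 1 GC box, 2 CCAAT boxes and 1 YY1 core, and the ACTL6B window 1 GC box and 3 CCAAT boxes. A GC box was in 76.0% of the 50 member windows and in 45.0% of all windows. It was in 95.7% of the 23 held in every library and in 59.3% of the others. The CRE was in no member window, against 1.85% of all windows. Median GC content was 68.2% in member windows and 58.7% in all. A match is a description of letters, and nothing about binding was measured.

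Libraries held 37284 to 131605 peaks. In the BRM014 experiment the ranges were 88472 to 98354 with DMSO, 41124 to 61112 with BRM014, 94904 to 104095 with DEX and DMSO and 50001 to 64319 with DEX and BRM014. In the double knockdown they were 81764 to 87739 with siCtl_only and 37284 to 66736 with siBRG1_siBRM. Treated libraries thus had far fewer peaks everywhere, BRM014 replicate 4 and siBRG1_siBRM replicate 3 the fewest of their groups, and read depth is not given in the lists. Numbers of regions per gene were therefore also computed per 10000 regions held, and both these numbers and the counts of lost and gained regions on an equal number of best peaks per library. Splits by distance, start windows, the layout of DPF3 and comparisons of lost regions between experiments and of DEX effects between groups are on the peaks as deposited. In bulk cells, a site open in fewer cells and a site less open in each cell cannot be told apart. For the line's label, starts of the mesenchymal markers ZEB1, CDH2, FN1, CAV1 and SPARC were held in 35 or 36 libraries and that of VIM in 1. Starts of ESR1, PGR, KRT8, PTPRC and CD79A were held in 0, and that of FOXA1 in 8. KRT18, EPCAM, CDH1, CD3E, SPI1, PECAM1 and CDH5 were also listed but had no start entry. An unheld start does not mean a locus without peaks. In the GATA6 experiment libraries held 14 to 21 regions at KRT8, 13 to 19 at CDH1, 10 to 15 at PTPRC and 0 to 1 at PGR. They held 6 to 9 at FN1, 12 to 16 at VIM and 19 to 27 at CAV1.

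The main question of the BRM014 experiment is what happens to open chromatin when the SWI/SNF ATPases are inhibited. Part of the regions at the SWI/SNF genes themselves had no peak with BRM014: 46 of the 293 regions that every DMSO library held had no peak in any BRM014 library (15.7%, at 19 of 29 genes), and 183 were kept by all 8 libraries. At the other remodeller genes 15 of 95 were lost (15.8%, at 7 of 10 genes) and 58 were kept. Over all regions near protein-coding genes, 21.7% were lost. By family, 8 of 54 regions were lost at CHD genes, 7 of 32 at INO80 family genes and 0 of 9 at ISWI genes. A lost share at or below that of all regions is no result particular to these genes, and no difference between SWI/SNF and other remodeller genes was tested. The share of all genes with a lost region was not computed, here or in the other comparisons.

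With DEX present in both arms, BRM014 took away 42 of 289 regions at SWI/SNF genes (14.5%) and 11 of 92 at the other genes (12%), against 23.3% of all. Regions lost in both settings numbered 22 of the 66 lost in either at SWI/SNF genes and 7 of 19 at the others, and 29 of the 39 genes had a loss in at least 1 setting. The same shares over all regions and all genes were not computed, so no result about the members is drawn from these counts. The opposite call was rare. A single region, at BCL7C, was gained with BRM014 without DEX (background 0.110%), and none with DEX (background 0.260%; 1 without DEX_DMSO replicate 1 or DEX_BRM014 replicate 2, and 3 without DEX_DMSO replicate 2 or DEX_BRM014 replicate 4). Neither ARID2, BCL7B, BCL7C, BICRAL, BRD9, DPF2, PHF10 and SS18 nor CHD1 and SMARCA5 lost a region in either setting.

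The share of regions held was then compared library by library. SWI/SNF regions were held at 53.4% ± 2.09 with DMSO (SD, n = 4), 37.9% ± 6.12 with BRM014, 53.4% ± 2.94 with DEX and DMSO and 39.6% ± 3.90 with DEX and BRM014. For the other remodellers the shares were 51.9% ± 2.76, 36% ± 4.61, 54.3% ± 3.02 and 38.5% ± 2.89, and for all regions near genes 48.2% ± 2.42, 28.7% ± 5.06, 51.1% ± 1.87 and 30.0% ± 3.51. In all 3 sets every BRM014 library lay below every library without the inhibitor.

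**Figure D1:**
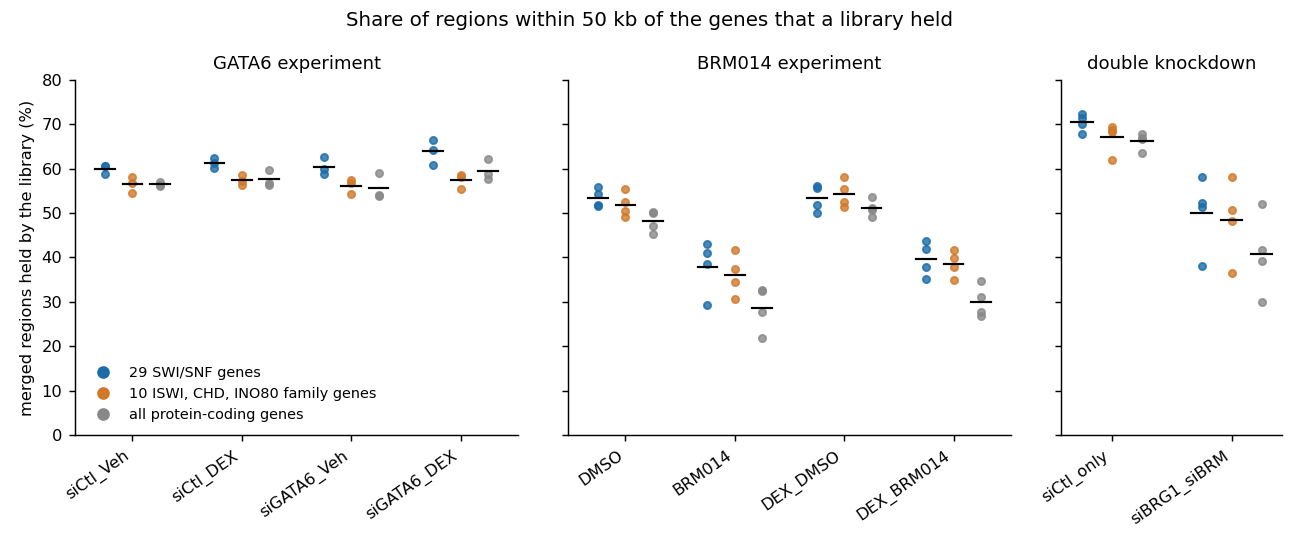
Share of regions held (percent, vertical axis) in each library of the 3 experiments, for regions of SWI/SNF genes, of other remodeller genes and of all regions near protein-coding genes; points are libraries and lines group means. SWI/SNF regions sit at 53.4% with DMSO and 37.9% with BRM014 on average, and at 70.4% with siCtl_only and 50.0% with siBRG1_siBRM; these shares follow the number of peaks per library and are not corrected for it.

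Losses were also split by their distance to a start site. Of SWI/SNF regions within 1 kb of a RefSeq start, 9 of 112 (8.04%) were lost with BRM014 without DEX, against 37 of 181 (20.4%) farther out. For the other remodellers outside chromosome 8, which has no start entries here, the shares were 3 of 38 (7.89%) and 9 of 46 (19.6%). For all regions near genes they were 7.42% and 27.7%. In each set the share was higher away from starts, and the member shares away from starts lay below that of all regions, a difference that was not tested. With DEX the SWI/SNF shares were 7.34% and 18.9%, and those of all regions 7.45% and 29.7%. Of the 61 member regions lost without DEX, 31 lay inside a member gene, 15 inside another protein-coding gene and 15 outside any.

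**Figure D2:**
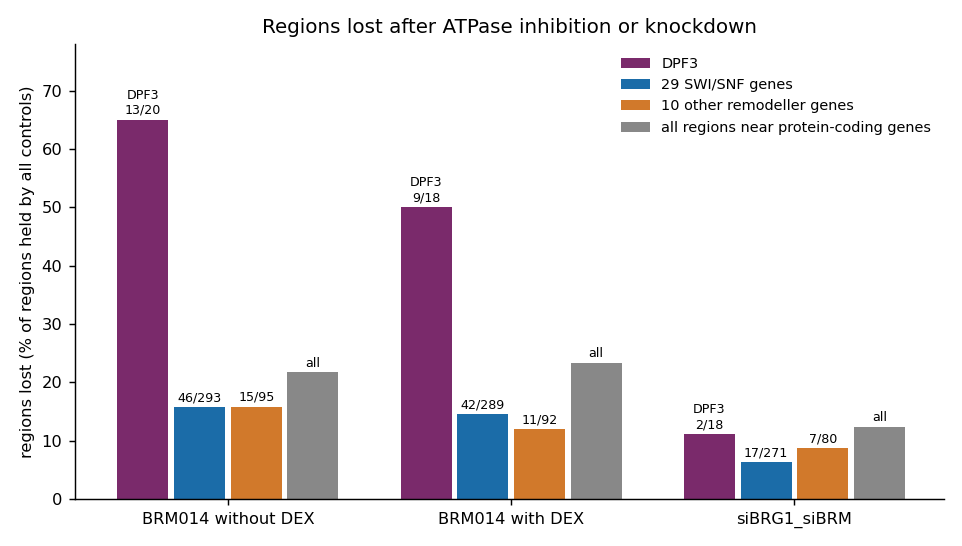
Share of regions lost (percent of those held by all control libraries, vertical axis) with BRM014 without and with DEX and with siBRG1_siBRM, for DPF3, SWI/SNF genes, other remodeller genes and all regions near protein-coding genes. The DPF3 bars reach 65.0%, 50.0% and 11.1%, and those for SWI/SNF genes 15.7%, 14.5% and 6.27%, each below the 21.7%, 23.3% and 12.3% of all regions; on an equal number of best peaks per library the SWI/SNF shares are 4.58%, 8.64% and 4.00%, and those of all regions 12.1%, 13.5% and 7.03%.

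The number of regions held per gene was then compared between 8 libraries with BRM014 and 8 without, with an exact two-sided permutation test within the DEX settings (4900 arrangements) and Benjamini-Hochberg adjustment over 19599 genes. It fell at 22 of 29 SWI/SNF genes and 8 of 10 other remodeller genes (adjusted p under 0.05) and rose at none, while it fell at 71.1% and rose at 0.0459% of all genes. The median change was −26.5% at SWI/SNF genes, −32.1% at other remodellers and −32.8% at all genes. The share of member genes that fell lies near that of all genes. These directions hold for the lists as deposited; per 10000 regions held, 2 members fell and 28 rose, as given further on. Of 38 genes for partners and related remodeller subunits, 29 fell and none rose (median −29.1%).

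SMARCA4 encodes BRG1, the ATPase found in nearly all proliferating cells and a target of BRM014. Its libraries held 14, 13, 14 and 12 regions with DMSO, 11, 13, 7 and 7 with BRM014, 14, 12, 13 and 12 with DEX and DMSO, and 10, 10, 8 and 7 with DEX and BRM014. The inhibitor libraries lay lower except BRM014 replicate 2, whose 13 regions overlap the other groups. The mean went from 13.0 ± 0.926 to 9.12 ± 2.23 (SD, n = 8 per arm; −29.8%, exact permutation adjusted p = 0.00296), but per 10000 regions held it rose from 1.41 to 1.77 (adjusted p = 0.0333). Without and with DEX, 2 of its regions were lost.

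SMARCA2 encodes BRM, the paralogous ATPase and the other target. It had few regions: 5, 5, 10 and 5 with DMSO, 2, 1, 4 and 2 with BRM014, 7, 2, 5 and 7 with DEX and DMSO, and 5, 2, 1 and 4 with DEX and BRM014. The groups overlapped. The mean fell from 5.75 ± 2.31 to 2.62 ± 1.51 (SD, n = 8 per arm; −54.3%, exact permutation adjusted p = 0.0161), and per 10000 regions it was 0.624 and 0.505 (adjusted p = 0.485). A single region inside the gene, chr9:2132633-2132786, was lost without DEX, and 2 of 4 libraries with DEX and BRM014 held it (exact permutation adjusted p = 0.275). The main start was held by all 36 libraries. Internal starts at positions 2157662 and 2158464 of chromosome 9 were held by 6 and 16 libraries, 6 and 12 of them in the GATA6 experiment.

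DPF3, a PHD-finger subunit of BAF complexes that reads acetylated and methylated histone H3, had the most losses of any member. Its libraries held 24, 24, 25 and 24 regions with DMSO and 7, 7, 8 and 6 with BRM014. With DEX they held 26, 23, 24 and 21 regions in DMSO and 10, 9, 9 and 10 with BRM014. No library with the inhibitor came near the lowest of the others. The mean fell from 23.9 ± 1.46 to 8.25 ± 1.49 (SD, n = 8 per arm, −65.4%, exact permutation adjusted p = 0.00140). No gene had a smaller adjusted p, and ARID1A, BCL7A, ACTB, SRCAP and CHD3 had the same one. The mean of DPF3 fell per 10000 regions held too, from 2.58 to 1.61 (adjusted p = 0.00164), and on equal numbers of best peaks from 10.9 to 5.25 (adjusted p = 0.00541). DPF3 was the only one of the 39 genes to fall under all 3 measures, and the share of all genes that do so was not computed. Since DPF3 was picked out after its counts were seen, this is a description of the gene.

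**Figure D3:**
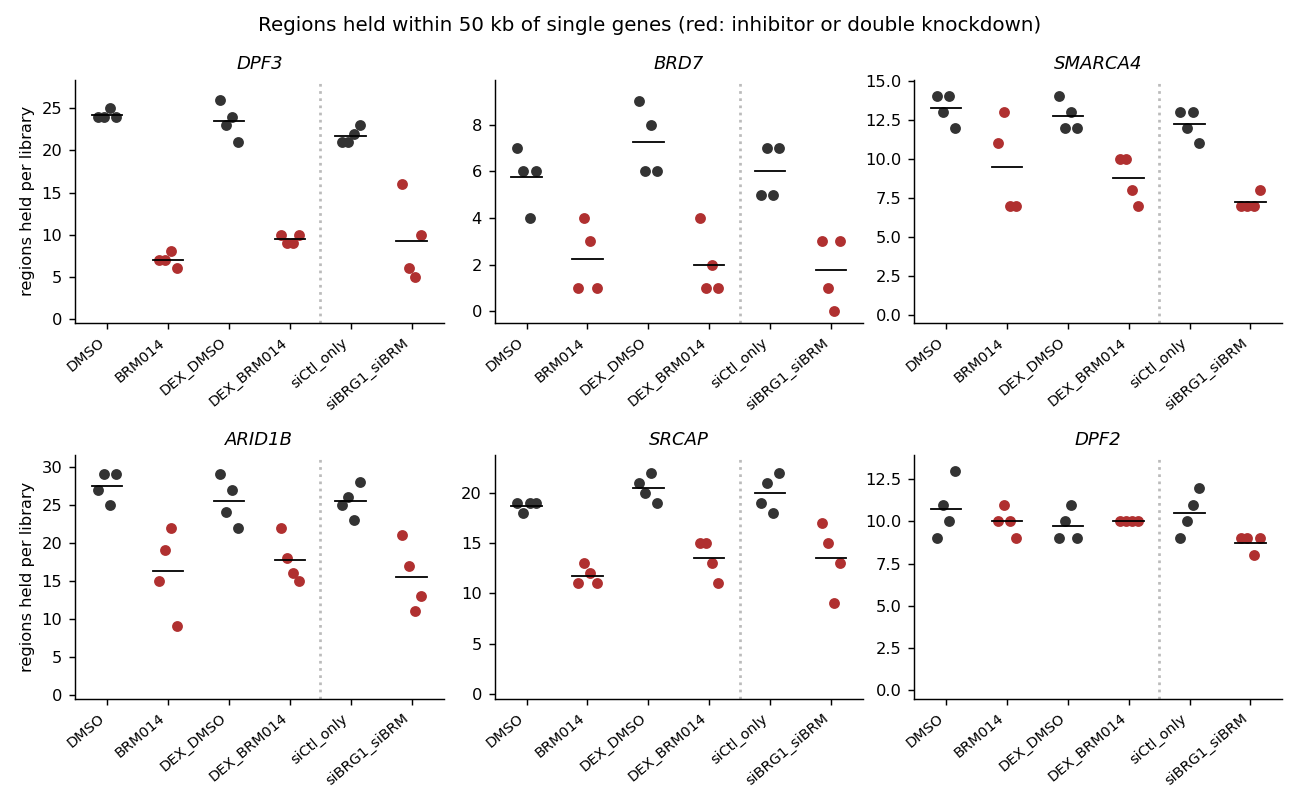
Number of regions held by each library (vertical axis) at DPF3, BRD7, SMARCA4, ARID1B, SRCAP and DPF2 in the BRM014 experiment and the double knockdown; points are libraries, red where the ATPases were inhibited or knocked down, and lines are group means. With BRM014, DPF3 goes from a mean of 23.9 to 8.25 and its groups lie apart, while SMARCA4 goes from 13.0 to 9.12 with an overlap, and per 10000 regions held the first falls and the second rises.

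Of the 20 DPF3 regions that all DMSO libraries held, 13 were lost with BRM014 (65.0%), and of 18 held with DEX and DMSO, 9 were (50.0%). In all 15 were lost in at least 1 setting, and 10 of these lie inside the gene. Their median distance to the nearest RefSeq start is 189 kb, and 12 passed the exact permutation test over all regions at an adjusted p under 0.05. That test scores the same presence of peaks by which the regions were called lost, so it adds no support to the call. The 7 lost in both settings lie 141 to 227 kb from a start. The 4 kept in both had a median DMSO fold enrichment, the authors' own value per peak, of 24.7 (11 to 32.6), against 11.4 (8.01 to 22.1) for the 7, and include the region at the start itself. The strongest lost region, chr14:72643336-72643777, had a mean deposited fold of 22.1 with DMSO and no peak in any inhibitor library. Its exact permutation adjusted p of 0.00867 is fixed by loss in both settings. The next by rank was chr14:72746035-72746565 (fold 15.5), which lost its peak without DEX only; it was among the 2 regions gained with DEX in the presence of BRM014, the other being chr14:72646982-72647594. Next came chr14:72666724-72666936 and chr14:72608343-72608613, the latter inside the neighbouring gene RGS6.

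**Figure D4:**
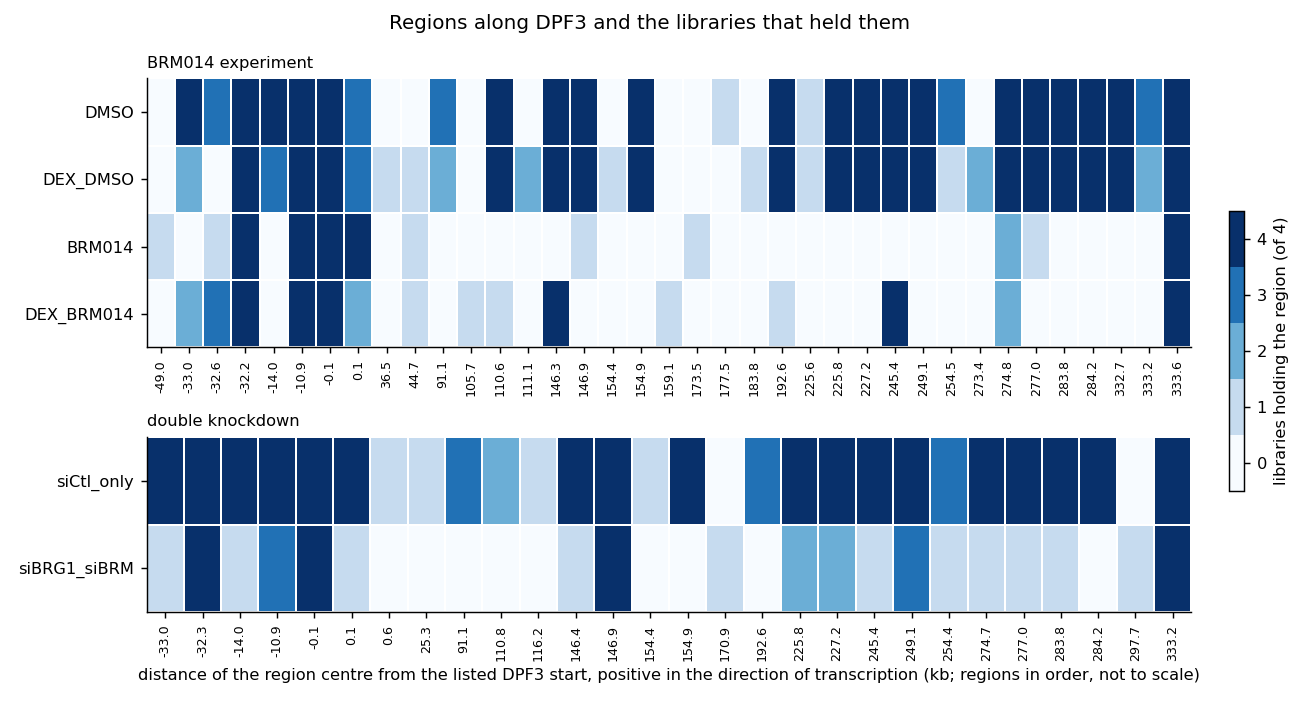
Number of libraries out of 4 that held each DPF3 region (colour) in the groups of the BRM014 experiment and the double knockdown (rows), with regions in order of distance from the gene's start (kb, horizontal axis, not to scale). The 4 regions kept in both settings include the start, and the 15 lost in either setting lie at a median of 189 kb from the nearest start; the numbers are of peaks as deposited and are not corrected for peaks per library.

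BRD7, a bromodomain subunit of PBAF, was chosen for mention after its values were seen. It held 7, 6, 4 and 6 regions with DMSO, 1, 4, 3 and 1 with BRM014, 9, 6, 8 and 6 with DEX and DMSO, and 4, 1, 2 and 1 with DEX and BRM014. Its mean fell from 6.50 to 2.12 (−67.3%, exact permutation adjusted p = 0.00228) and per 10000 regions from 0.699 to 0.393 (adjusted p = 0.0203), but with an equal number of best peaks it was 0.500 without and 1.38 with the inhibitor (adjusted p = 0.0752).

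ARID1A and ARID1B are alternative subunits that mark BAF complexes. ARID1A held 22, 21, 24 and 25 regions with DMSO, 15, 17, 16 and 11 with BRM014, 25, 28, 21 and 23 with DEX and DMSO, and 16, 17, 19 and 17 with DEX and BRM014. The groups did not overlap, and the mean fell from 23.6 to 16 (−32.3%, exact permutation adjusted p = 0.00140), whereas per 10000 regions held it was 2.55 and 3.12. ARID1A lost chr1:26705813-26706100 and chr1:26725991-26726225, both inside the gene, in both settings. Their exact permutation adjusted p of 0.00867 is fixed by loss in both settings and adds no support. ARID1B, the paralogue, held 27, 29, 25 and 29 regions with DMSO, 15, 19, 22 and 9 with BRM014, 29, 24, 27 and 22 with DEX and DMSO, and 22, 18, 16 and 15 with DEX and BRM014. Its groups touched at 22 regions. The mean fell from 26.5 to 17.0 (−35.8%, exact permutation adjusted p = 0.00228), was 2.86 and 3.25 per 10000 regions (adjusted p = 0.0949), and fell from 13.6 to 11.2 with an equal number of best peaks (adjusted p = 0.0213). Its best-ranked loss without DEX, chr6:157106621-157106837, and chr6:156827618-156828205 had no peak with the inhibitor in either setting.

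BICRA, which defines the non-canonical complex, held 20, 21, 19 and 22 regions with DMSO, 15, 20, 17 and 13 with BRM014, 25, 23, 24 and 22 with DEX and DMSO, and 17, 17, 16 and 11 with DEX and BRM014 (mean 22 and 15.8, −28.4%). It lost 1 region without DEX and 5 with DEX, the best ranked being chr19:47664240-47664657 inside the gene. SMARCC1, a scaffold of the core, held 11, 14, 11 and 13 regions with DMSO, 9, 10, 9 and 6 with BRM014, 14, 11, 13 and 11 with DEX and DMSO, and 11, 10, 6 and 6 with DEX and BRM014 (mean 12.2 and 8.38, −31.6%). SS18L1, a coactivator subunit, held 15, 17, 15 and 16 with DMSO, 12, 15, 12 and 9 with BRM014, 18, 17, 18 and 19 with DEX and DMSO, and 12, 11, 13 and 8 with DEX and BRM014 (mean 16.9 and 11.5, −31.9%). All 3 fell as deposited (exact permutation adjusted p = 0.00296 each), and all 3 were higher with the inhibitor per 10000 regions. SS18L1 lost the region with the highest deposited fold among the losses named here without DEX, 22.3 at chr20:62155516-62155896, in both settings.

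The remaining SWI/SNF genes that fell lost between 13.3% and 53.8% of their regions on average. BCL7A fell by 42.2% (exact permutation adjusted p = 0.00140) and SMARCE1 by 53.8% (adjusted p = 0.0167), the latter from a mean of 3.25 regions. ACTB, which encodes the cytoskeletal actin that is also a SWI/SNF subunit and a common housekeeping control, held 21, 20, 20 and 22 regions with DMSO, 19, 18, 16 and 12 with BRM014, 24, 19, 20 and 20 with DEX and DMSO, and 18, 17, 18 and 12 with DEX and BRM014. Its mean fell from 20.8 to 16.2 (−21.7%, exact permutation adjusted p = 0.00140) as deposited and was 2.24 and 3.16 per 10000 regions, so the direction at this gene flips with the scaling. The 9 genes that did not pass were BRD9, SMARCD1, DPF2, PHF10, SS18, BICRAL, BCL7B, CHD1 and INO80. Among them DPF2, the DPF paralogue found in most tissues, held 9, 11, 10 and 13 regions with DMSO and 10, 11, 10 and 9 with BRM014 (over both settings −2.44%, exact permutation adjusted p = 0.879).

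Among the other remodellers, SRCAP, which deposits the histone variant H2A.Z, held 19, 18, 19 and 19 regions with DMSO, 11, 13, 12 and 11 with BRM014, 21, 20, 22 and 19 with DEX and DMSO, and 15, 15, 13 and 11 with DEX and BRM014. Its groups did not overlap (mean 19.6 and 12.6, −35.7%, exact permutation adjusted p = 0.00140; 2.12 and 2.46 per 10000 regions). SRCAP lost the same 3 regions in both settings: chr16:30740429-30740671 inside the gene, chr16:30741495-30741719 inside TMEM265 and chr16:30747448-30747675, 863 bp from PHKG2. EP400, the ATPase of the TIP60 complex, held 9, 14, 11 and 12 with DMSO, 7, 5, 7 and 5 with BRM014, 15, 10, 15 and 10 with DEX and DMSO, and 12, 8, 7 and 7 with DEX and BRM014 (mean 12 and 7.25, −39.6%, adjusted p = 0.00649 in the exact permutation test). Its strongest loss was chr12:132078222-132078572 inside the gene, in both settings.

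The CHD enzymes followed. CHD7, which is linked to CHARGE syndrome, held 16, 13, 16 and 17 regions with DMSO, 8, 15, 11 and 7 with BRM014, 16, 12, 16 and 17 with DEX and DMSO, and 9, 10, 10 and 11 with DEX and BRM014 (−34.1%, exact permutation adjusted p = 0.00441). CHD3, a NuRD ATPase, held 23, 24, 22 and 25 with DMSO, 18, 20, 19 and 16 with BRM014, 25, 27, 25 and 25 with DEX and DMSO, and 18, 22, 19 and 18 with DEX and BRM014 (−23.5%, adjusted p = 0.00140 in the exact permutation test). CHD4, the other NuRD ATPase, held 13, 16, 15 and 17 with DMSO, 10, 13, 10 and 11 with BRM014, 20, 16, 18 and 14 with DEX and DMSO, and 14, 12, 10 and 10 with DEX and BRM014 (−30.2%, exact permutation adjusted p = 0.00368). All 3 fell as deposited and were higher with the inhibitor per 10000 regions. INO80, a nucleosome-spacing enzyme, held 10, 10, 10 and 13 with DMSO, 10, 12, 8 and 4 with BRM014, 9, 12, 10 and 10 with DEX and DMSO, and 7, 10, 11 and 7 with DEX and BRM014 (−17.9%, exact permutation adjusted p = 0.156). One INO80 region, chr15:41104280-41104580, was lost in both settings.

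At the level of single regions, 39 SWI/SNF and 14 other remodeller regions were held by fewer libraries with BRM014 (exact permutation adjusted p under 0.05 over 189959 regions) and none by more. Over all regions 7.97% passed downward and 0.0184% upward. At an unadjusted p under 0.05, 84 and 27 were held by fewer and 5 and 0 by more. The share of all regions at this unadjusted threshold was not computed, so these counts give no result about the members. With a replicate block, given further on, no member region was called as held by fewer.

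The scaling set the direction at most members. Per 10000 regions held, DPF3 and BRD7 fell, 28 members rose (22 SWI/SNF and 6 other) and 9 did not pass, in the same exact permutation test. Of the 30 genes that fell as deposited, 20 rose on this scale. The median over all genes moved by +20.9%, with 11.5% of genes lower and 44.8% higher. With the 41026 best peaks of every library, DPF3, ARID1B and DPF1 fell (DPF1, a neuronal DPF paralogue, from 5.62 to 4.5, adjusted p = 0.0315), 15 members rose and 21 did not pass, with a median of +7.50% over all genes, 10.6% lower and 18% higher. Most remodeller genes thus held fewer regions in number but not relative to the rest of each list, and a change in depth or library quality and a change in open chromatin cannot be told apart from peak counts.

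The double knockdown used siRNAs directed at both ATPases, whose levels were not measured here. It removed 17 of 271 regions at SWI/SNF genes (6.27%, at 12 genes) and 7 of 80 at other remodeller genes (8.75%), against 12.3% of all, and 168 and 55 were kept. No member region was gained (background 0.223%). The total of 24 lost rose to 42 (11.4% of SWI/SNF regions) without siBRG1_siBRM replicate 1, which held more peaks than the rest of its group. Leaving out a library can only keep or raise this count. The share of all regions was not computed for this omission, so 11.4% cannot be set beside 12.3%. SWI/SNF regions were held at 70.4% ± 1.89 with siCtl_only and 50.0% ± 8.45 with siBRG1_siBRM (SD, n = 4). For other remodellers the shares were 67.0% ± 3.46 and 48.3% ± 8.96, and for all regions near genes 66.2% ± 1.87 and 40.7% ± 9.08.

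With 4 libraries against 4, the exact permutation test has 70 arrangements and a smallest p of 0.0286, and after adjustment over 19432 genes none was called (smallest adjusted p 0.0840). All 39 members had a lower mean with siBRG1_siBRM, and 15 had groups that did not overlap, each at an unadjusted p of 0.0286, as 6602 genes had downward and 8 upward. Limma with an empirical Bayes trend on log2(number + 1), an alternative chosen after the data were seen, called 14 SWI/SNF and 5 other remodeller genes lower and none higher (adjusted p under 0.05), against 47.6% of all genes lower. The median change was −25.3% at SWI/SNF genes, −29.0% at other remodellers and −31.4% at all genes. These are falls in number. Per 10000 regions held, 36 members had a higher and 3 a lower mean, none at an adjusted p under 0.05 (smallest exact permutation adjusted p 0.104; at an unadjusted p under 0.05, 11 higher and 1 lower).

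The targeted genes were measured at their own loci. SMARCA4 held 13, 12, 13 and 11 regions with siCtl_only and 7, 7, 7 and 8 with siBRG1_siBRM (limma log2 change −0.68, adjusted p = 0.00303), and the groups did not overlap; per 10000 regions it held 1.48 and 1.56. SMARCA2 held 3, 4, 5 and 4 regions with siCtl_only and 5, 3, 1 and 3 with siBRG1_siBRM (limma log2 change −0.41, adjusted p = 0.282), and the groups overlapped. Both main start windows stayed held in every library. These are counts of open regions, and no transcript level was measured.

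DPF3 held 21, 21, 22 and 23 regions with siCtl_only and 16, 6, 5 and 10 with siBRG1_siBRM (limma log2 change −1.27, adjusted p = 0.0173), and CHD7 held 13, 13, 18 and 14 and 9, 6, 5 and 6 (−1.06, adjusted p = 0.00663). BRD7 held 5, 7, 5 and 7 and 3, 1, 0 and 3 (−1.54, adjusted p = 0.0279). Per 10000 regions DPF3 held 2.62 and 1.83 (exact permutation adjusted p = 0.198) and BRD7 0.720 and 0.330 (adjusted p = 0.198), whereas CHD7 held 1.75 and 1.34 (adjusted p = 0.104). The 3 genes were named because their percent change was greatest, and they fell on both scales by value, though none passed on the second.

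Other named genes were also lower in number by limma in the double knockdown: ARID1B (−0.72, adjusted p = 0.0202), EP400 (−0.69, 0.0413), SMARCC1 (−0.61, 0.00529), ARID1A (−0.51) and BICRA (−0.40, 0.00888). ARID1B held 25, 26, 23 and 28 regions against 21, 17, 11 and 13, and ARID1A 19, 20, 20 and 17 against 15, 15, 9 and 14. Regions lost in this experiment included chr6:157106658-157106803 in ARID1B, chr1:26725829-26726287 in ARID1A and chr16:30740476-30740646 in SRCAP, all of which overlap regions lost with the inhibitor. Of 11 members that fell more than the median gene with BRM014, 9 did so in the double knockdown, where 15 members did. This overlap was not computed over all genes, and both changes are not corrected for peaks per library. No result about the members is drawn from it.

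**Figure D5:**
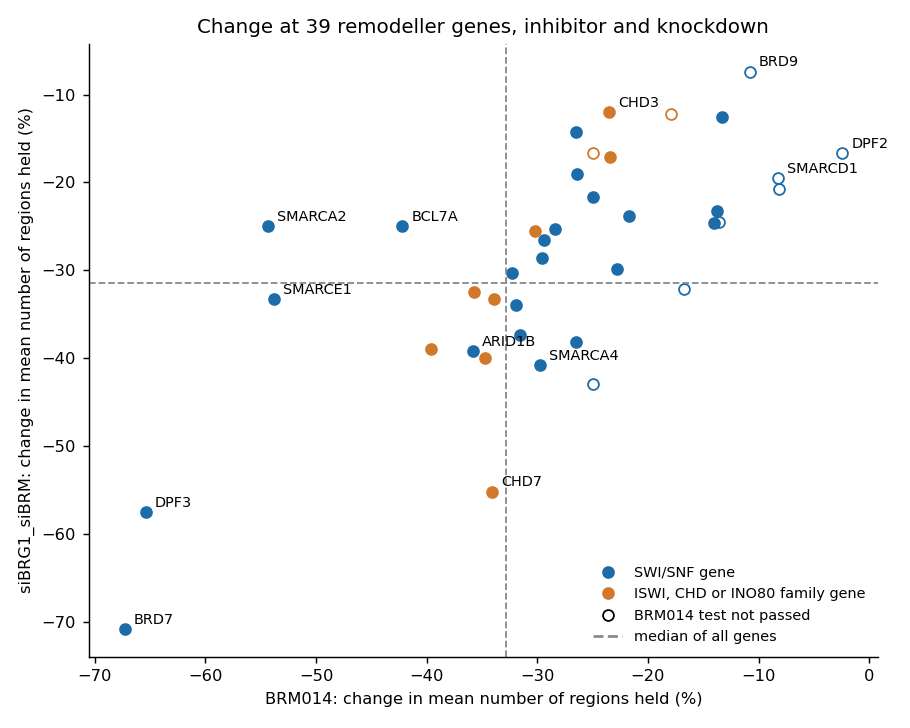
Percent change in the mean number of regions per member gene with BRM014 (horizontal axis) against the change with siBRG1_siBRM (vertical axis); each point is a gene, coloured by family, open where the BRM014 test was not passed. DPF3 stands at −65.4% and −57.5% and BRD7 at −67.3% and −70.8%, and all 39 genes lie below 0 on both axes as deposited, whereas per 10000 regions held only 4 do for BRM014 and 3 for siBRG1_siBRM; dashed lines mark the median of all genes.

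The regions lost with the inhibitor were looked up in the other experiment. Of 46 SWI/SNF regions lost with BRM014 without DEX, 34 overlapped regions that all siCtl_only libraries held, and 11 of these were lost with siBRG1_siBRM (32.4%), against 46.8% over all such regions near genes. For the other remodellers it was 4 of 7 (57.1%). Of those that BRM014 kept, 157 of 179 SWI/SNF regions (87.7%) and 51 of 56 others (91.1%) were kept in the knockdown, against 83.4% of all. DPF3 stood at 2 of 11, the region inside RGS6 at chr14:72608321-72608606 and chr14:72737646-72737872. The strongest DPF3 loss of the inhibitor, chr14:72643336-72643777, was still held by 3 of 4 knockdown libraries.

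DEX moved few regions at these genes. After 2 h in control siRNA, 9 of 289 member regions held by no vehicle library were gained (3.11%; background 6.90%), at ARID1A (2), ARID1B, PHF10, ACTL6B, BICRAL, BCL7B, CHD3 and INO80, and 1 was lost, at SMARCD2 (background 1.32%; 9, 3 and 6 without siCtl_Veh replicates 1, 2 and 3, and 3, 4 and 5 without siCtl_DEX replicates 1, 2 and 3). The gained count lay between 10 and 18 when 1 library was left out, at 16 without siCtl_Veh replicate 3 and at 14, 16 and 18 without siCtl_DEX replicates 1, 2 and 3. In siGATA6 cells 14 were gained (5.09%; background 6.55%), among them 2 each at BRD9 and SMARCB1, and 2 lost, at DPF3 and SMARCA1 (background 0.988%). Gained counts there rose to 24, 22 and 23 without siGATA6_DEX replicates 1, 2 and 3, and lost counts to 6 without siGATA6_Veh replicate 3 and to 4 without siGATA6_DEX replicate 2 or 3.

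After 4 h of DEX in DMSO, 5 regions were gained (background 3.89%), at ARID1A, SS18L1, BICRA, ACTB and CHD3, and 4 lost (background 0.885%), at ARID1B, SMARCB1, BCL7C and CHD7; without DEX_DMSO replicates 2 and 4 the gained count was 11 and 9. In BRM014 only the 2 DPF3 regions given above were gained (background 0.285%) and none lost (background 0.301%); the gained count was 4 without BRM014 replicate 2 or 3 and 5 without DEX_BRM014 replicate 3, and 1 region was lost without DEX_BRM014 replicate 2 or 3. The region chr17:7959591-7959861, within 50 kb of CHD3 but nearest to CNTROB, was gained at 2 h in both siRNA settings, and its counterpart chr17:7959637-7959816 at 4 h. A region near INO80 and nearest to CHAC1, chr15:40958118-40958478, was gained in both siRNA settings at 2 h (exact permutation p = 0.00500, the smallest possible, adjusted p = 0.442).

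By gene, no member was called for DEX at 2 h, DEX at 4 h or siGATA6, either by the exact permutation test or by limma, which called 4.30% of all genes higher with DEX at 2 h. At an unadjusted p under 0.05 the permutation test gave 7 members higher at 2 h (ARID1B, PBRM1, SMARCB1, DPF2, BICRA, INO80 and EP400). Of all genes it gave 2191 higher and 267 lower there. At 4 h it gave SRCAP higher, against 1445 of all genes higher and 175 lower. For siGATA6 it gave 0 members, against 348 of all genes higher and 330 lower. The smallest adjusted p over all genes was 0.178, 0.316 and 1.00. The DEX effect did not differ by a called amount between BRM014 and DMSO or between siGATA6 and siCtl at any gene (0 of all genes called; at DPF3 the DEX effect was higher by 3.25 regions in BRM014, exact permutation p = 0.0359, and at BRD7 higher by 3.67 regions in siGATA6, exact permutation p = 0.0450, both with an adjusted p of 1.00).

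GATA6 knockdown moved few regions at these genes. In vehicle it lost 3 member regions, at ARID2, SMARCD2 and CHD3 (background 1.33%), and gained 1 at DPF3 (background 1.10%). With DEX it lost 2, at ARID1A and ARID1B (background 1.16%), and gained 6, at ARID1B, PBRM1, BRD9, DPF1, ACTL6B and BICRAL (background 1.86%). In vehicle the lost count was 8, 7 and 7 without siCtl_Veh replicates 1, 2 and 3 and 11, 5 and 5 without siGATA6_Veh replicates 1, 2 and 3, and the gained count 2 and 7 without siCtl_Veh replicates 1 and 3 and 5, 6 and 8 without siGATA6_Veh replicates 1, 2 and 3. With DEX the lost count was 6, 5 and 5 without siCtl_DEX replicates 1, 2 and 3 and 7 without siGATA6_DEX replicate 2 or 3, and the gained count 11 without siCtl_DEX replicate 1 or siGATA6_DEX replicate 1 and 15 without siGATA6_DEX replicate 2. Leaving out a library can only keep or raise these counts, because a call needs every library of both groups. That they did not fall was thus fixed by the rule, and the share of all regions was not computed for these omissions. SMARCA4 held 18, 17 and 17 regions with siCtl and vehicle, 19, 20 and 16 with siCtl and DEX, 15, 19 and 19 with siGATA6 and vehicle, and 21, 18 and 18 with siGATA6 and DEX. SMARCA2 held 13, 10 and 11, then 12, 11 and 11, then 11, 12 and 13, and then 15, 14 and 14 in the same order. DPF3 held 26, 25 and 22, then 23, 20 and 23, then 25, 25 and 29, and then 25, 22 and 31. The 4 groups overlapped at SMARCA4 and DPF3, and at SMARCA2 the siGATA6 libraries with DEX lay above all others, with no gene called.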

How the data were processed

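Peaks were analysed for 36 ATAC-seq libraries in 10 groups, which were read from the sample titles, where replicates are called biological. Where nothing says the replicates were separate cultures, p-values measure only the spread between libraries. The submitters' processing notes name GRCh38 (hg38) and the tools MACS2, HOMER, SAMtools and bcl2fastq. Aligner, read shift, duplicate handling and caller settings: not given in the sources used here. The authors deposited 1 peak list per library with a fold ratio over background at the summit and −log10 p and −log10 q values per peak, and these are the authors' own values, used to describe, rank or filter peaks within a list. The smallest deposited −log10 q was 1.30 or 1.31 in every library. Lists carry no read counts, so depth is unknown and no interval for counting error could be given. No 2 libraries had identical peaks.

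Peaks on chromosomes 1 to 22 and X were merged within each experiment (overlap of at least 1 bp). A library held a region when it had a peak in it. Lost means held by every control library and no treated library, gained the opposite, and kept held by all. Genes come from the RefSeq table, and the window is 50 kb. Regions held per gene and libraries per region were compared with exact two-sided permutation tests within levels of the other factor, with Benjamini-Hochberg adjustment at 0.05 over all genes or regions. The members, the gene lists and the tests were chosen with earlier results of these data known. Library values are given for SMARCA4, SMARCA2, DPF3 and the 6 genes per family with most regions lost with BRM014 in both settings together, and for ACTB as the housekeeping member; BRD7 and DPF2 were added after their values were seen. The coordinates printed follow the mean rank within lists. Single lost regions of SMARCA4 are not reported here. Alternatives were a −log10 q of at least 5, equal numbers of best peaks, scaling per 10000 regions, 1 deviating library allowed, 50% cover of a region, windows of 10 and 100 kb, single DEX settings, a replicate block and leaving out each library. The region's own centre in the window, tests of a difference between DEX effects, and limma on log2(number + 1) with a trend were added after the data were seen. The gene tests were tested on simulated data. There the permutation test made no adjusted call with 400 or 70 arrangements, so counts of 0 from those designs say little. The main tests were not paired by replicate number, although most libraries of the GATA6 and double knockdown experiments were closest to their own number. Region sequences were not used here. Python 3.11.15, NumPy 2.4.6, pandas 2.3.3, matplotlib 3.10.9 and limma 3.58.1 were used.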

Additional observations from a re-analysis of the deposited data

Results flagged for a closer look

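Within groups of 4 libraries, 12 of 96 sets of counts had a library set apart from the rest by Dixon's criterion, and chance gives about 1 in 20. Other remodeller regions held with siCtl_only were 109 in replicate 1 and 121, 120 and 122 in the others. SMARCA2 held 10 regions in DMSO replicate 3 and 5 in each other library. DPF3 held 25 in DMSO replicate 3 and 24 in each other. BICRA held 11 in DEX_BRM014 replicate 4 against 17, 17 and 16. SRCAP held 18 in DMSO replicate 2 against 19 in each other. CHD3 held 27 in DEX_DMSO replicate 2 against 25 in each other. INO80 held 13 in DMSO replicate 4 against 10 in each other. In the double knockdown SMARCA4 held 8 in siBRG1_siBRM replicate 4 against 7 in each other, and CHD4 held 11 in replicate 2 against 10 in each other. ARID1A held 9 in siBRG1_siBRM replicate 3 against 15, 15 and 14, and CHD3 held 16 there against 22, 22 and 21, in the library with the fewest peaks of all. CHD3 held 18 in siCtl_only replicate 1 against 25, 25 and 24. Several of these gaps are of 1 region, where the other libraries happen to be tied.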

How the results depend on the processing

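Of 559 summary values recomputed under alternatives, 423 stayed within set limits and 136 moved. The limit was a fixed ratio to the main value for a count. For a percent it was the exact binomial interval of the main value, which treats regions as independent. Of 350 values of named genes, 291 kept direction and call, 33 kept direction but lost the call, 5 gained it and 21 reversed. Unless a reason is stated, the cause of a change was not tested. Depth is unknown, so the number of peaks is the main limit: it is lower in every treated library of the BRM014 and siBRG1_siBRM experiments, and calls that need all libraries follow the poorest library. Gained and lost counts at 0 to 14 regions moved under most settings.

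Scaling reversed the direction at most named genes. Per 10000 regions held, 2 members fell with BRM014 and 28 rose, against 30 and 0 as deposited, and the differences in regions per 10000 were 0.367 at SMARCA4, 0.387 at ARID1B, 0.573 at ARID1A, 0.688 at BICRA, 0.416 at SS18L1, 0.291 at SMARCC1, 0.347 at SRCAP, 1.03 at CHD3, 0.300 at CHD7, 0.112 at EP400, 0.469 at CHD4 and 0.532 at INO80, each in the opposite direction to the count. With an equal number of best peaks, 3 members fell and 15 rose, and the differences were 2.38 at ARID1A, 0.750 at BICRA, 2.25 at SS18L1, 0.625 at SMARCC1, 1.38 at SRCAP, 3.62 at CHD3, 1.62 at CHD7, 2.12 at CHD4 and 1.5 at INO80. On equal numbers BRM014 lost 9 member regions without DEX (4.58% of SWI/SNF, 4.44% of others) and gained 11, and with DEX lost 17 (8.64% and 5.77%) and gained 15; of all regions near genes 12.1% and 13.5% were lost and 4.84% and 6.24% gained. Member regions held by fewer libraries were 9 against 53. With siBRG1_siBRM 6 were lost (3.11% of member regions, 0% of others; 7.03% of all) and 7 gained (7.22%; 5.78% of all). DEX at 2 h then lost 3 in siCtl and gained 9 in siGATA6, DEX at 4 h lost 0 in DMSO and gained 1 in BRM014, and siGATA6 lost 1 and gained 0 in vehicle and lost 1 with DEX.

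With a −log10 q of at least 5, DEX at 2 h lost 0 and gained 4 in siCtl and lost 1 in siGATA6, siGATA6 gained 2 in vehicle and 2 with DEX, BRM014 gained 0 without and 2 with DEX, and DEX at 4 h in BRM014 lost 2 and gained 0. Of all regions near genes, DEX at 2 h then lost 1.00% and gained 9.86% in siCtl and lost 0.667% in siGATA6. In the same set siGATA6 gained 1.08% in vehicle and 2.37% with DEX. BRM014 gained 0.234% without and 0.548% with DEX, and DEX at 4 h in BRM014 lost 0.332% and gained 0.414%. Where 1 library of each group could deviate, counts rose throughout. DEX at 2 h lost 46 and gained 56 in siCtl and lost 39 and gained 66 in siGATA6, siGATA6 lost 45 and gained 42 in vehicle and lost 43 and gained 57 with DEX, and DEX at 4 h lost 21 and gained 29 in DMSO and lost 6 and gained 19 in BRM014. BRM014 lost 127 without DEX (27.6% of SWI/SNF, 31.2% of others) and 119 with DEX (26.5% and 25.7%), where it gained 9, and siBRG1_siBRM lost 91 (21.7% and 22.3%) and gained 2. Of all regions near genes 36.3%, 37.9% and 32.3% were then lost. In the same set BRM014 with DEX gained 1.23% and siBRG1_siBRM 0.956%. DEX at 2 h lost 11.5% and gained 16.5% in siCtl and lost 9.34% and gained 18.5% in siGATA6. There siGATA6 lost 10.8% and gained 10.7% in vehicle and lost 9.39% and gained 14.9% with DEX. DEX at 4 h lost 5.70% and gained 8.12% in DMSO and lost 3.89% and gained 2.10% in BRM014.

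When peaks had to cover 50% of a region, DEX at 2 h lost 4 in siCtl and 4 in siGATA6, siGATA6 lost 7 and gained 4 in vehicle and lost 5 with DEX, DEX at 4 h gained 9 in DMSO and 1 in BRM014, BRM014 with DEX gained 1, and siBRG1_siBRM lost 39 (13.3% of SWI/SNF). A 10 kb window, which holds fewer regions, gave 0 lost and 5 gained for DEX at 2 h in siCtl, 0 lost and 2 gained for DEX at 4 h in DMSO, 0 gained and 33 lost for BRM014 without and with DEX, 11 lost for siBRG1_siBRM and 18 members with fewer regions. Of all regions in that window, DEX at 2 h in siCtl lost 1.28% and gained 6.89%. DEX at 4 h in DMSO lost 0.828% and gained 3.75% of them. BRM014 gained 0.115% without DEX and lost 22.1% with DEX (members 16.3%), and siBRG1_siBRM lost 11.7% (members 6.25%). The share of all genes with fewer regions is not given for this window. A 100 kb window gave 4 lost and 17 gained for DEX at 2 h in siCtl, 5 lost in siGATA6, 5 lost and 2 gained for siGATA6 in vehicle and 4 lost with DEX, 9 gained for DEX at 4 h in DMSO and 1 lost in BRM014, 2 gained for BRM014 without DEX and 88 lost with it, and 44 lost for siBRG1_siBRM. Of all regions in that window, DEX at 2 h lost 1.38% and gained 6.93% in siCtl and lost 1.04% in siGATA6. There siGATA6 lost 1.38% and gained 1.13% in vehicle and lost 1.21% with DEX. DEX at 4 h gained 3.95% in DMSO and lost 0.332% in BRM014. BRM014 gained 0.106% without DEX and lost 24.2% with DEX (members 14.9%), and siBRG1_siBRM lost 12.9% (members 8.03%).

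Within a single DEX setting no member was called lower, since 4 libraries against 4 allow no smaller p than 0.0286. Limma called 31 members lower with BRM014 (79.5%, against 77.4% of all genes), where the permutation test called 30, and 19 with siBRG1_siBRM (48.7%, against 47.6% of all genes), where it called 0. Correlations between same-numbered libraries were −0.00541 to 0.197 (GATA6), −0.175 to 0.217 (BRM014) and 0.0315 to 0.237 (double knockdown). Their medians were 0.0472, 0.00783 and 0.115, against −0.0367, −0.00130 and −0.0244 for other pairs. In the same order 9 of 12, 4 of 16 and 7 of 8 libraries were closest to their own number. Libraries of the GATA6 and double knockdown experiments thus went partly with replicate number, which the main tests did not use. With the replicate block, which leaves fewer arrangements, 27 members fell with BRM014 and 0 member regions were called. The share of all genes that fell was not computed for the block. No adjusted p under 0.05 given above for a single member region was reached with it.

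Leaving out 1 library at a time, the lost and gained counts ranged from 3 to 9 and 10 to 18 for DEX at 2 h in siCtl, 3 to 6 and 16 to 24 in siGATA6, 5 to 11 and 1 to 8 for siGATA6 in vehicle, 2 to 7 and 9 to 15 with DEX, 4 to 6 and 5 to 11 for DEX at 4 h in DMSO, and 0 to 1 and 2 to 5 in BRM014. Lost counts were 63 to 75 for BRM014 without and 54 to 64 with DEX, where gained counts were 0 to 3, and 24 to 42 for siBRG1_siBRM (6.27% to 11.4% of SWI/SNF regions). A call needs every library of both groups, so leaving 1 out could only keep or raise these lost and gained counts. The share of all regions was not computed for these omissions. Members with fewer regions with BRM014 were 29 to 33.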
